A study of Mus musculus with 9 samples.

Results

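The K+ ion-charged nanostructure (K+ ICN) was compared with the non-charged peptide amphiphile (PA) in cultured mouse neurons, across all genes with enough counts. Members were chosen by treatment label, which took 6 of the 9 libraries of the study, 3 for each of K+ ICN and PA, and 15183 of 40773 gene symbols. The other 3 libraries, treated with a Na+ ion-charged nanostructure (Na+ ICN), entered the fit and were used to ask which differences from PA also separated the ions. All 3 groups were embryonic cortical neurons from mouse brain that had settled overnight before 80 µl of material, labelled as a 200 µM treatment from a 5 mM stock, was placed on them. Per the labels, 50% of the medium was exchanged at 48 h, and the series design places harvest at 72 h. The sources used here name neither mouse strain nor embryonic age, and an untreated or plain KCl culture was not analysed here. The design calls the replicates biological without saying whether each came from its own dissection, and the p-values therefore reflect culture-to-culture spread.

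Peptide amphiphiles are short peptides joined to a fatty tail, and in water they assemble into long fibres that can be laid over cells. In an ion-charged nanostructure the fibres carry a high charge that draws a dense cloud of counterions around them, here K+ or Na+. Raised K+ outside a neuron depolarises its membrane and opens voltage-gated calcium channels. Calcium then acts through kinases and CREB, MEF2 and SRF to switch on immediate early transcription factors, followed by later effectors such as secreted neurotrophins, neuropeptides and regulators of synapses.

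The count totals were 20573886 to 21914112 with K+ ICN and 18532789 to 22906950 with PA. In a principal component analysis the leading axis (23.7% of the variance) placed the 3 K+ ICN libraries between -13 and -12.1, the Na+ ICN libraries between -7.55 and -3.32, and the PA libraries between 16.4 and 19.4. No library stood apart from its group on it. Pan-neuronal markers summed to 6124 to 6234 CPM (counts scaled to a common library size) with K+ ICN and 6873 to 6939 CPM with PA, so the labelled cell type was present in every library. Xist reached 1291 to 1384 CPM with K+ ICN and 1159.6 to 1362 CPM with PA, and the Y-linked Ddx3y 31.002 to 33.2 CPM with K+ ICN and 29.6 to 34.02 CPM with PA, so each library held cells of both sexes. Levels below are CPM, which are not divided by gene length and are therefore compared between libraries and not between genes. In cultures of mixed cells, more cells of a type and more RNA per cell cannot be told apart.

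Of 15183 genes tested, 2403 passed an adjusted p of 0.05 (edgeR quasi-likelihood test, Benjamini-Hochberg), which is 15.8%. They divided into 1237 higher with K+ ICN (8.15%) and 1166 lower (7.68%), and 4236 genes had an unadjusted p under 0.05. Upper-quartile scaling in place of TMM moved the median log2 change of all genes by 0.019 and the split to 1440 higher and 902 lower. The groups did not overlap in 4858 genes, 32% of those tested, and in 2306 of the 2403 that passed.

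Among called genes, rises were larger than falls. The median fold was 1.29 among genes that rose and 1.15 among those that fell. The highest quintile of mean level, where smaller changes can be called, held 345 of the rises and 666 of the falls. The part of level in this difference was not tested. At least 2-fold higher were 107 genes, and 12 were at least 2-fold lower; between 1.5-fold and 2-fold the counts were 211 and 35. Below 1.2-fold the order turned round, with 404 higher and 811 lower. Genes that rose took 15.5% to 15.8% of all CPM in K+ ICN libraries, against 13.2% to 13.3% in PA libraries. Genes that fell took 19.6% to 19.7% with K+ ICN and 22.01% to 22.1% with PA.

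**Figure D1:**
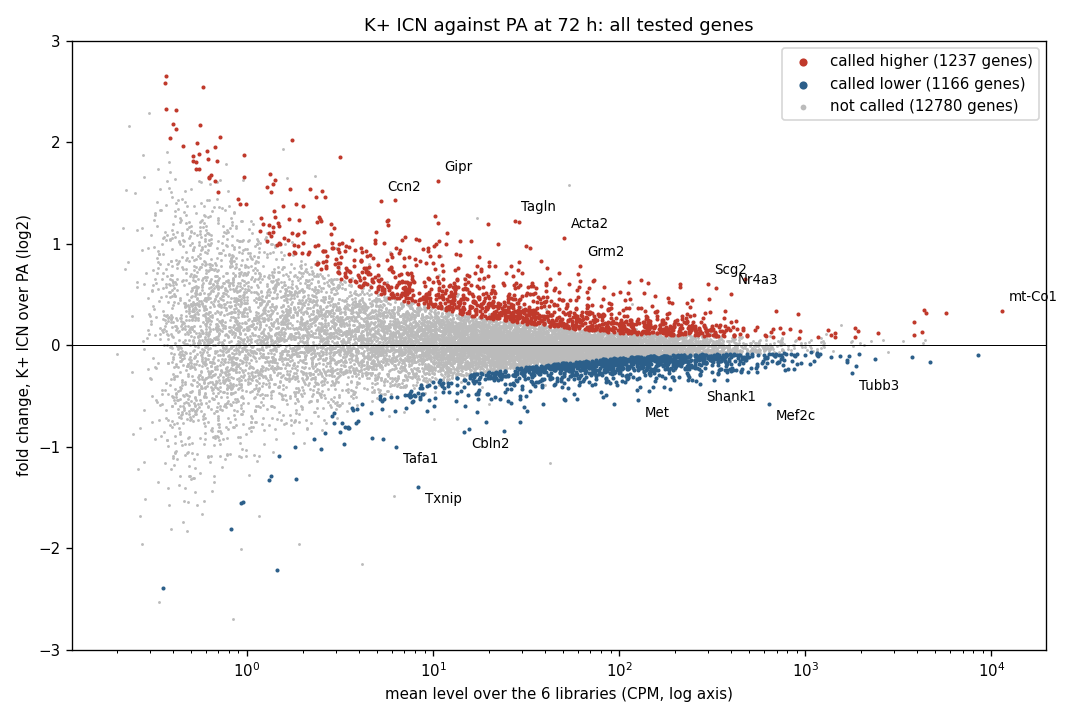
Each point is a tested gene, with its mean level over the 6 libraries in CPM on a log axis and its log2 fold change of K+ ICN over PA on the other; 7 genes beyond a log2 change of 3 are not drawn. The 1237 genes called higher, in red, reach larger changes than the 1166 called lower, in blue.

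Immediate early transcription factors, the first genes that activity switches on, were more abundant with K+ ICN. Of 29 tested, 11 rose (37.9%, against 8.15% of all genes) and 0 fell, with a median log2 change of 0.31, against 0.0031 over all genes. With K+ ICN, Fos stood at 51.9, 49.5 and 53.6 CPM, and with PA at 31.3, 28.2 and 31.8 CPM. Every K+ ICN library lay above every PA library. Fos, the AP-1 subunit most used as a mark of recent activity (chromosome 12, 85473890 to 85477274, GRCm38), rose 1.69-fold, a log2 change of 0.76 with an SE of 0.07 (edgeR adjusted p = 1.09e-11). K+ ICN libraries had 77.3, 67.1 and 78.04 CPM of Npas4, and PA libraries 49.6, 42.2 and 45.3 CPM. Npas4, a factor that calcium entry induces in neurons, rose 1.62-fold with no overlap (edgeR adjusted p = 5.89e-11).

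Families within the same list gave different counts. Of the orphan nuclear receptors, Nr4a1 and Nr4a3 rose, 2 of 3 tested. Levels of Nr4a3 were 468, 458 and 481 CPM with K+ ICN and 338, 324 and 333 CPM with PA. The lowest K+ ICN library was well above the highest PA library, and the rise was 1.41-fold (log2 0.50, SE 0.031, edgeR adjusted p = 7.16e-17). Of 6 AP-1 genes, Fos, Fosl2 and Jund rose. None of 4 Egr genes passed: Egr1 had 14.7, 15.3 and 16.2 CPM with K+ ICN and 16.1, 16.6 and 13.9 CPM with PA, overlapping (log2 -0.0096, edgeR adjusted p = 0.971). Arc, the synaptic activity gene, overlapped as well, with 3.44, 2.07 and 3.58 CPM with K+ ICN against 4.45, 2.74 and 2.89 CPM with PA (edgeR adjusted p = 0.766). The other risers were Btg2, Crem, Ier5, Maff and Nfil3.

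Later activity genes rose in 9 of 29 cases and fell in 2 (median log2 0.09). The neurotrophin Bdnf, which supports survival and synapse growth, was among them. Bdnf reached 62.7, 66.7 and 64.2 CPM in the K+ ICN libraries and 43.3, 40.1 and 43.9 CPM in the PA libraries. The groups did not overlap, at 64.5 ± 2.05 CPM with K+ ICN against 42.4 ± 2.02 CPM with PA (mean ± SD, n = 3 each), a 1.52-fold rise (edgeR adjusted p = 7.02e-10). The G protein brake Rgs2 rose 1.43-fold, the GPI-anchored neuritin Nrn1 1.53-fold, and Cdkn1a, an inhibitor of cyclin-dependent kinases, 1.64-fold. Acan, which builds nets around neurons, Gpr3, Nptx2, Rasgrp1 and Rgs4 rose too, and Dclk1 and the vesicle protein Syt4 fell.

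Of 31 neuropeptide precursors and dense-core granule proteins, 11 were called higher (35.5%) and 0 lower (median log2 0.11). The log2 change was above 0 in 22 of the 31. These genes make peptides and the granules that store and process them. The granin Scg2 had the second smallest p among all rises. In K+ ICN libraries Scg2 came to 349, 362 and 369 CPM, against 236, 235 and 240.0 CPM in PA libraries. K+ ICN libraries were all more than 100 CPM above PA libraries, and the rise was 1.52-fold (log2 0.60, SE 0.034, edgeR adjusted p = 3.82e-18). Vgf, another granin-like precursor, rose 1.49-fold, chromogranin B (Chgb) 1.38-fold, the peptide-amidating enzyme Pam 1.34-fold and the PACAP precursor Adcyap1 1.36-fold. The prohormone convertases Pcsk1 and Pcsk2, the Pcsk1 inhibitor Pcsk1n, Ptprn, Ptprn2 and Scg3 completed the 11.

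The promoters of Scg2 and Chgb each hold the cAMP response element, TGACGTCA, to which CREB binds. They are shown because both genes rose and carry the element close to the start; capitals mark it. The RefSeq table on GRCm38.p6 gives 250 bases before to 50 after each start, and 100-base windows are printed 5′ to 3′ on the gene's strand. The Scg2 window is chr1:79440041-79440140, minus strand, with the element beginning 68 bases before the start. The Chgb window is chr2:132781524-132781623, plus strand, with the element at 72 bases before it.
Scg2: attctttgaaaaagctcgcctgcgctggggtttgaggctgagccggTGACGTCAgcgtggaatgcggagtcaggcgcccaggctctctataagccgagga
Chgb: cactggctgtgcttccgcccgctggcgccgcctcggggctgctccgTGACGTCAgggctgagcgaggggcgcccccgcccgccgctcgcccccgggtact
TGACGTCA, a palindrome, was found in promoters of 5 of 27 neuropeptide and granule genes (18.5%) and 3 of 16 MAP kinase feedback genes (18.8%). Among tested genes with a promoter in the table it was in 408 of 11735 (3.48%). These shares count a gene if any of its promoters matched. Counted as single promoters, a different unit, 588 of all 32851 held it (1.79%). By gene, TGACGTCA was also in 5 of 34 of the synaptic adhesion list (14.7%), most of whose called members fell. It was in 2 of 24 immediate early genes (8.33%) and in 0 of 14 RGS genes. A match is a string of letters and not a measured binding site. Promoters were found for 77.3% of tested genes, under the 80% needed to compare shares among all genes that rose and fell, so that comparison is void and is not given.

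**Figure D2:**
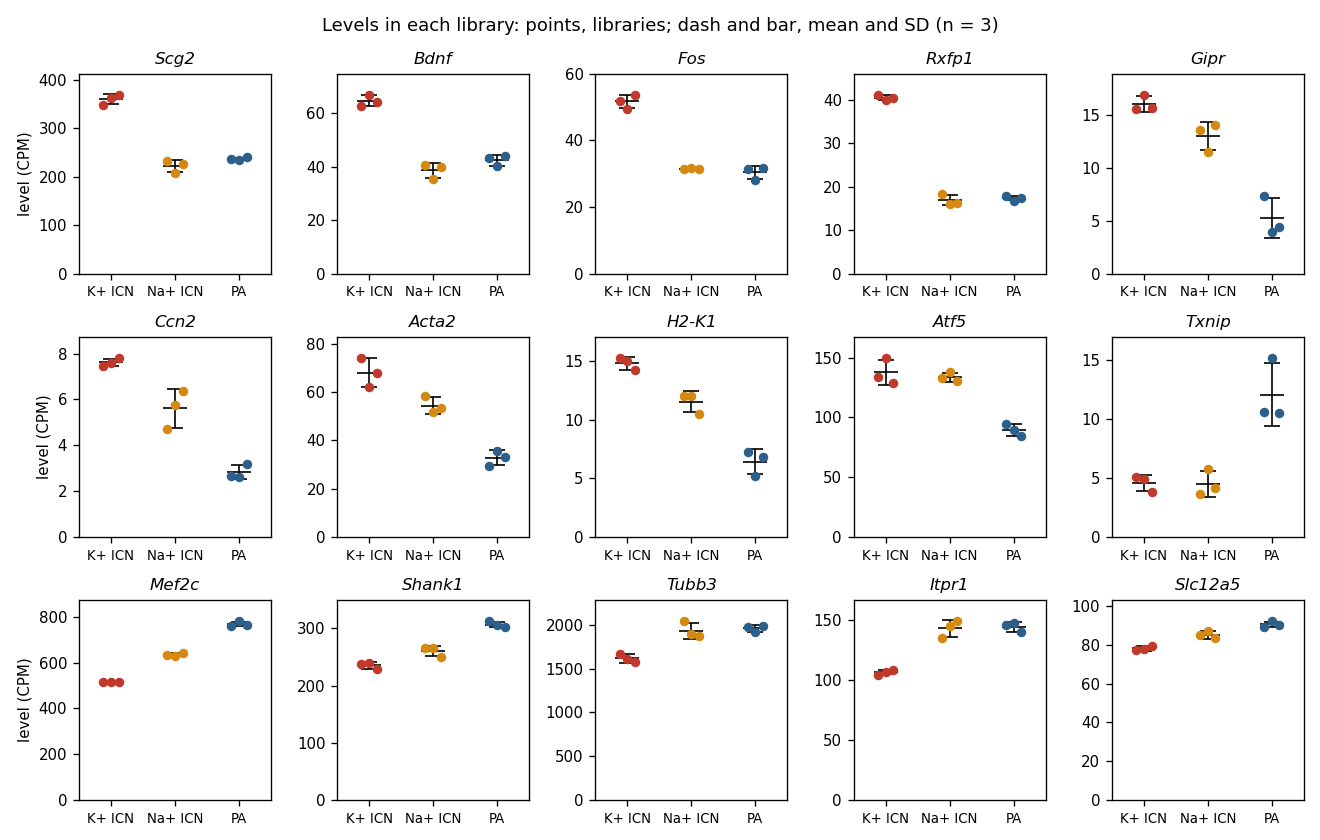
Levels of 15 genes in CPM from 0 in each library, with K+ ICN at left, Na+ ICN in the middle and PA at right; points are libraries, and dash and bar are mean and SD (n = 3). K+ ICN and PA points do not overlap in any panel, while Na+ ICN points lie near PA for Scg2, Bdnf, Fos, Rxfp1, Tubb3 and Itpr1 and near K+ ICN for Atf5 and Txnip.

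Feedback inhibitors of the MAP kinase pathway, which activity and growth factors induce, rose in 7 of 18 cases and fell in 0. They were the ERK and JNK phosphatases Dusp4, Dusp5, Dusp6, Dusp8 and Dusp16 (5 of 11 Dusp genes) and Spry2 and Spred3 (2 of 6 Sprouty and Spred genes). Their folds were modest: Dusp6 had 40.5, 39.1 and 43.4 CPM with K+ ICN against 32.6, 31.1 and 31.6 CPM with PA, a separation without overlap of 1.29-fold (edgeR adjusted p = 0.000139). The call on Dusp5, at 1.78-fold, ended without K+ ICN replicate 3. Regulators of G protein signalling rose in 6 of 17 cases (Rgs2, Rgs4, Rgs7, Rgs10, Rgs13 and Rgs16) and fell in 2 (Rgs17 and Rgs19), or 1 with upper-quartile scaling or without K+ ICN or PA replicate 3, K+ ICN replicate 1 or PA replicate 2. For Rgs13 the libraries gave 9.70, 7.62 and 10.1 CPM with K+ ICN and 3.12, 2.53 and 4.42 CPM with PA. Rgs13 was thus low but separated, at 2.69-fold (log2 1.43, SE 0.24, edgeR adjusted p = 0.000215).

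Receptors that raise cAMP and enzymes that act through cyclic nucleotides supplied several of the largest rises. Of 51 genes of this signalling, 10 rose and 6 fell (median log2 0.06). Gipr, the receptor for gastric inhibitory polypeptide, coupled to adenylyl cyclase, had the largest rise of any named gene with a mean of at least 5 CPM. Gipr was measured at 15.5, 16.8 and 15.6 CPM with K+ ICN, against 7.36, 3.93 and 4.42 CPM with PA. PA replicate 1 was the highest of its group but lay well below all 3 K+ ICN libraries. The rise was 3.06-fold (log2 1.61, SE 0.15, edgeR adjusted p = 1.17e-09).

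With K+ ICN, Rxfp1 stood at 41.1, 39.9 and 40.3 CPM, and with PA at 17.9, 16.8 and 17.5 CPM. Rxfp1, the relaxin receptor, had a narrow spread in both groups and a 2.32-fold rise (chromosome 3, 79641600 to 79737951, edgeR adjusted p = 6.84e-16). Prkg2, a cGMP-dependent kinase, rose 2.35-fold, to 8.08 ± 1.35 CPM with K+ ICN against 3.42 ± 0.482 CPM with PA (SD, n = 3 each). The salt-inducible kinases Sik2 and Sik3, Vipr1, Drd1, Akap12 and the cAMP phosphodiesterases Pde4d and Pde8b rose. Adenylyl cyclases went the other way: 3 of 8 fell (Adcy1, Adcy5 and Adcy6) and 0 rose. Prkacb, a catalytic subunit of protein kinase A, had 359, 369 and 365 CPM with K+ ICN and 425, 446 and 432 CPM with PA and fell to 0.839 of PA (edgeR adjusted p = 6.4e-09). The adenosine receptor Adora2a and the kinase inhibitor Pkig also fell.

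Ion pumps and carriers numbered 9 higher of 40 and 2 lower. The falls were 4 without K+ ICN replicate 3. The Na+/K+ pump subunits Atp1b1 and Atp1b2 rose. Among called genes of this list the largest rise was in Slc24a4, a K+-dependent Na+/Ca2+ exchanger. K+ ICN libraries had 22.6, 19.7 and 22.04 CPM of Slc24a4, and PA libraries 9.46, 10.8 and 11.2 CPM. Its groups stood apart at 2.04-fold (edgeR adjusted p = 2.59e-10).

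Slc12a5 (KCC2), the neuronal chloride extruder that makes GABA inhibitory, fell to 0.863 of PA, with 77.3, 77.6 and 79.5 CPM with K+ ICN against 89.4, 92.1 and 90.4 CPM with PA (edgeR adjusted p = 0.000672). Its uptake counterpart Slc12a2 (NKCC1) did not pass, with 77.5, 81.6 and 79.5 CPM with K+ ICN against 73.003, 78.8 and 75.5 CPM with PA (log2 0.07, edgeR adjusted p = 0.396). Slc12a7, Slc4a10, Slc9a5, Atp2a2 and the kinase Wnk1 rose. The exchanger Slc8a1 fell to 0.940 of PA, a call lost with upper-quartile scaling and without either of K+ ICN replicates 1 and 2 or PA replicates 1 and 2. Of 17 osmotic response genes 3 rose (Aqp4, Hspa4l and Slc38a2) and 2 fell (Akr1b3 and Lrrc8b), and without either K+ ICN or PA replicate 3 the rises numbered 1. The falls were 1 without K+ ICN replicate 2 or PA replicate 3. Nfat5, the osmotic transcription factor, overlapped between groups (log2 0.029, edgeR adjusted p = 0.883).

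Potassium channels divided almost evenly, with 10 of 64 higher and 9 lower. Inward rectifiers, which set the resting potential, had 3 of 9 higher (Kcnj2, Kcnj4 and Kcnj6) and 0 lower, and Kv1 channels had 2 of 6 higher and 0 lower. Levels of Kcna1 were 30.7, 37.02 and 38.3 CPM with K+ ICN and 24.5, 23.5 and 22.3 CPM with PA. Kcna1, which limits firing in axons, was higher in every K+ ICN library and 1.51-fold up (edgeR adjusted p = 4.39e-07). Kcna6, the leak channels Kcnk1 and Kcnk9, Kcnmb4 and Kcns1 rose, and Kcnd2 did so with a call lost without any 1 library. Kcnk1 lost its call without PA replicate 1. Among falls was the large-conductance calcium-activated Kcnma1 (to 0.854 of PA).

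Of 41 sodium and calcium channel genes, 16 fell (39.0%, against 7.68% of all genes) and 4 rose (median log2 -0.10). Without K+ ICN or PA replicate 1 the rises were 2. In the highest quintile of all genes by mean level 21.9% fell, and 30.2% of the longest genes in that quintile. The part of level and gene length in the channel count was not tested. Of 8 sodium channel genes 4 fell and 0 rose. Scn3b, an auxiliary subunit, had 152, 149.7 and 158 CPM with K+ ICN and 187, 188 and 190.2 CPM with PA and fell to 0.812 of PA (edgeR adjusted p = 3.03e-08). Of 21 calcium channel genes 9 fell and 3 rose, and without K+ ICN replicate 3 the falls were 5. The rises were 1 without K+ ICN or PA replicate 1 and 5 with upper-quartile scaling. Cacna1c, the L-type channel through which depolarisation signals to the nucleus, fell to 0.810 of PA (edgeR adjusted p = 1.21e-06).

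Among called members of the list the largest fall was in Trpc5, a cation channel. Trpc5 reached 12.4, 10.96 and 10.6 CPM in the K+ ICN libraries and 19.1, 20.6 and 20.4 CPM in the PA libraries. The groups were far apart, and Trpc5 fell to 0.566 of PA (edgeR adjusted p = 5.86e-08). The intracellular calcium release channels moved apart: Itpr1, the IP3 receptor, fell to 0.738 of PA (edgeR adjusted p = 2.1e-11) and Ryr1, a ryanodine receptor, rose 1.99-fold (edgeR adjusted p = 5.95e-07).

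Glutamate receptor and postsynaptic genes fell in 16 of 48 cases and rose in 5 (median log2 -0.09), or 8 with upper-quartile scaling. Directions differed within 1 receptor family: of 5 NMDA subunits Grin1 and Grin2d rose and Grin2b and Grin3a fell. In K+ ICN libraries Grin1 came to 263, 263 and 272 CPM, against 199, 200.3 and 199 CPM in PA libraries. Grin1, the subunit that every NMDA receptor needs, was higher in all K+ ICN libraries, by 1.34-fold (edgeR adjusted p = 1.01e-12). Grin2b, which prevails in immature neurons, had 354, 382 and 375 CPM with K+ ICN against 424, 455 and 418 CPM with PA, a fall to 0.858 (edgeR adjusted p = 5.58e-06).

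For Grm2 the libraries gave 74.6, 81.4 and 77.9 CPM with K+ ICN and 45.9, 44.9 and 45.8 CPM with PA. The presynaptic metabotropic receptor Grm2 rose 1.71-fold without overlap (log2 0.78, SE 0.06, edgeR adjusted p = 4.28e-14), while Grm3 and Grm5 fell. The AMPA subunits Gria1 and Gria3 fell, 2 of 4 tested, as did the kainate subunits Grik1 and Grik2, 1 of them without K+ ICN replicate 1 or 2 or PA replicate 2 or 3. Shank1 was measured at 238, 239.7 and 228 CPM with K+ ICN, against 312, 305 and 303 CPM with PA. Shank1, a scaffold of the postsynaptic density, fell to 0.768 of PA with a narrow spread in both groups (edgeR adjusted p = 1.7e-12). Dlg2, Dlgap1, Homer2, Neto2 and Camk2b fell, and Synpo and Nsmf rose. Camk2a, at 0.925 of PA, lost its call with upper-quartile scaling, with limma voom, with no low-count filter and without any single library other than PA replicate 3.

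GABA genes fell in 11 of 37 cases and rose in 4. Gabrg1, a GABA-A receptor subunit, had 15.3, 14.2 and 13.5 CPM with K+ ICN and 22.4, 24.7 and 25.5 CPM with PA and fell to 0.591 of PA (edgeR adjusted p = 7.08e-08), while Gabra5 rose 1.30-fold and Gabrg3 1.30-fold. The rises numbered 2 without either K+ ICN or PA replicate 1 or 3. Gad1, which makes GABA, overlapped between groups (log2 -0.059, edgeR adjusted p = 0.276). Among 51 presynaptic genes, 13 rose and 9 fell; the rises numbered 6 without K+ ICN replicate 3 and 8 without PA replicate 2. The calcium sensor Syt1 fell to 0.859 of PA (edgeR adjusted p = 2.91e-08), and the priming factor Unc13b rose 1.36-fold (edgeR adjusted p = 3.89e-07).

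Of 49 synaptic adhesion genes 20 fell (40.8%) and 3 rose (median log2 -0.13), and the rises were 0 without K+ ICN replicate 3. A test for a change beyond 1.2-fold called 1 of 49 adhesion genes lower. It called 0 of 70 axon guidance genes and 0 of 51 tubulin and microtubule genes lower. Estimated falls of single genes could still exceed 1.2-fold. Teneurins and latrophilins, which bind each other across the synapse, had 6 of 7 lower and 0 higher, also without any 1 of the 6 libraries. With K+ ICN, Tenm2 stood at 281, 289.7 and 282 CPM, and with PA at 369, 363 and 347 CPM. Tenm2 fell to 0.790 of PA with no overlap, a log2 change of -0.34 with an SE of 0.032 (edgeR adjusted p = 1.39e-11). Cbln2, a secreted organiser of synapses, had 10.1, 9.41 and 12.01 CPM with K+ ICN and 16.7, 19.7 and 20.3 CPM with PA, and fell to 0.554 of PA (edgeR adjusted p = 1.2e-07). Nlgn1, Nlgn3, Nrxn2, Clstn1, Clstn2, Slitrk1 and Slitrk5 fell, while Slitrk2, C1ql1 and Ptprs rose.

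Of 70 axon guidance and adhesion genes, 30 fell (42.9%) and 5 rose (median log2 -0.11). Eph receptors, which read repulsive ephrins, had 6 of 10 lower and Epha3 higher. Epha7 had 73.3, 78.3 and 74.7 CPM with K+ ICN and 94.6, 95.2 and 95.6 CPM with PA, with no overlap (edgeR adjusted p = 5.29e-07). Plexins, the semaphorin receptors, had 4 of 8 lower and Plxnb2 higher, and semaphorins 6 of 18 lower and Sema7a higher. The contactins were all lower, 6 of 6, but 3 of 6 without K+ ICN replicate 1. Of these, Cntn2 and Cntn5 kept their calls in every alternative other than the 1.2-fold threshold, falling to 0.821 and 0.759 of PA (edgeR adjusted p = 2.9e-07 and 0.000196). Ntng2, a membrane netrin, moved against the group: it had 129.7, 133 and 128 CPM with K+ ICN and 94.8, 92.5 and 87.2 CPM with PA, a 1.43-fold rise (edgeR adjusted p = 1.11e-12).

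Tubulins and microtubule proteins fell in 21 of 51 cases and rose in 3 (median log2 -0.08). K+ ICN libraries had 1668, 1613 and 1570.4 CPM of Tubb3, and PA libraries 1977, 1913 and 1989 CPM. Tubb3, the neuronal beta tubulin, fell to 0.825 of PA. Of 7 beta tubulins 5 fell, 3 without K+ ICN or PA replicate 3, and Tubb6 rose 1.73-fold. The microtubule proteins Dcx, Map1b and Map2 lay between 0.870 and 0.893 of PA (5 of 8 MAP genes fell). None of 4 neurofilament genes passed: Nefl overlapped, with 103, 96.5 and 94.8 CPM with K+ ICN against 99.6, 95.1 and 98.1 CPM with PA (edgeR adjusted p = 0.937). Of 10 pan-neuronal markers 4 fell (Elavl3, Map2, Syt1 and Tubb3), and with upper-quartile scaling 1 rose. The part of neuron number in these falls was not tested.

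Mef2c, a calcium-regulated transcription factor that restrains synapse number, had the smallest p of the whole comparison. Levels of Mef2c were 515, 517 and 514 CPM with K+ ICN and 759, 779.8 and 766 CPM with PA. The K+ ICN libraries were nearly equal and all PA libraries were over 200 CPM higher. Mef2c (chromosome 13, 83504017 to 83667079) thus had 0.671 of its PA level, a log2 change of -0.58 with an SE of 0.027 (edgeR adjusted p = 1.24e-21). The receptor tyrosine kinase Met fell to 0.687, the protocadherin Pcdh19 to 0.668 and Kctd12, an auxiliary subunit of GABA-B receptors, to 0.742 of PA. Of 43 cortical transcription factors 8 fell and 6 rose. Neurod6, which marks projection neurons, did not pass (log2 -0.019, edgeR adjusted p = 0.747).

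Actin, SRF and YAP target genes rose in 20 of 35 cases (57.1%), with Cdc42ep3 lower (median log2 0.37). Without any 1 library other than PA replicate 1 the falls were 0. These encode the contractile and adhesion machinery that cells make when they spread on a stiff surface. Acta2 reached 74.1, 62.04 and 68.1 CPM in the K+ ICN libraries and 29.5, 35.8 and 33.1 CPM in the PA libraries. Acta2, smooth muscle actin, was higher in every K+ ICN library, at 2.08-fold (log2 1.05, SE 0.071, edgeR adjusted p = 4.62e-15). Tagln, an actin-binding protein of the same cells, rose 2.33-fold, with libraries at 43.99, 32.4 and 38.8 CPM with K+ ICN against 16.2, 16.7 and 16.6 CPM with PA.

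In K+ ICN libraries Ccn2 came to 7.48, 7.57 and 7.80 CPM, against 2.66, 2.64 and 3.19 CPM in PA libraries. Ccn2, a matricellular YAP target, was tightly grouped on both sides and rose 2.68-fold (edgeR adjusted p = 6.25e-08), and its relative Ccn1 rose 1.77-fold (edgeR adjusted p = 4.87e-09). The crosslinker Flna rose 1.38-fold, the tropomyosin Tpm4 1.44-fold and vinculin (Vcl) 1.49-fold. Srf itself, Wwtr1, Tead1, Axl and Myh9 rose, while cytoplasmic actin Actb overlapped (log2 0.045, edgeR adjusted p = 0.493).

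The Ccn1 promoter holds GGAATG, the TEAD site of the YAP pathway, in reverse, beginning 103 bases before the start. It is shown as a known target that rose; capitals mark the site. The window is chr3:145650035-145650134 on the minus strand, GRCm38.p6, RefSeq.
Ccn1: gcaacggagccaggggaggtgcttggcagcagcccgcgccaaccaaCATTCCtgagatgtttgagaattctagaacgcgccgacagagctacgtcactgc
On either strand the 6 letters were in promoters of 13 of 30 genes of the list (43.3%) and of 14.5% of tested genes. Counted as single promoters, 4817 of all 32851 (14.7%) held them. The list was written to hold YAP targets, so its high share says nothing about K+ ICN.

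Extracellular matrix genes rose in 32 of 67 cases (47.8%) and fell in 8 (median log2 0.31). The summed level of the list overlapped between groups, at 3573 to 3633 CPM with K+ ICN and 3502 to 3577 CPM with PA. Of 19 collagens 10 rose and 0 fell, and of 7 laminins 4 rose and 1 fell, with 2 higher without K+ ICN replicate 2 and 0 lower without K+ ICN replicate 2 or 3 or PA replicate 1 or 3. For Bgn the libraries gave 7.48, 8.04 and 8.33 CPM with K+ ICN and 2.86, 3.98 and 3.37 CPM with PA. Bgn, a small proteoglycan, rose 2.34-fold with no overlap (edgeR adjusted p = 4.39e-07). Sparc, which binds collagen, rose 1.49-fold and thrombospondin 1 (Thbs1), an astrocyte protein that promotes synapses, 1.56-fold. Among falls, Vcan had 0.807 of its PA level, Ncan 0.879 and Tnr 0.906, and Reln, Tnc, Lama2, Mmp15 and Mmp16 also fell. Of the lectican family, Acan rose 1.37-fold. Tnr lost its call without K+ ICN replicate 1.

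Transforming growth factor and BMP genes rose in 7 of 38 cases, 4 without K+ ICN replicate 2, and fell in 2. The falls were 0 without K+ ICN replicate 3 or PA replicate 2 and 1 without any of the others. Bmp3, a member of the BMP family, rose 1.97-fold. Markers of cells other than neurons stood beside these rises. Of 8 mural markers 2 rose (Acta2 and Tagln), and the list of 11 summed to 129 to 151 CPM with K+ ICN and 71.3 to 79.9 CPM with PA. Both are also on the actin list, and the other 9 markers, a split chosen after the sums were seen, came to 30.3 to 34.3 CPM with K+ ICN and 24.7 to 27.4 CPM with PA. Of 9 fibroblast markers 4 rose and 1 fell, with sums of 87.3 to 92.9 CPM with K+ ICN and 80.7 to 86.4 CPM with PA. Endothelial markers had 1 of 3 higher (Kdr), with sums of 14.6 to 19.7 CPM with K+ ICN and 10.6 to 15.1 CPM with PA, and Tie1 was at 0 in all 6 libraries. Kdr lost its call without K+ ICN replicate 1 or PA replicate 1 or 3. The part of these cells in the result was not tested.

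Genes of antigen presentation and interferon response rose in 10 of 27 cases and fell in 0 (median log2 0.57). The count was 6 without K+ ICN replicate 2, K+ ICN replicate 3 or PA replicate 1. Of 5 class I genes, which display peptides on the cell surface, 4 rose. H2-K1 was measured at 15.2, 14.96 and 14.2 CPM with K+ ICN, against 7.26, 5.22 and 6.78 CPM with PA. H2-K1 was higher in each K+ ICN library, by 2.30-fold (edgeR adjusted p = 1.49e-09). H2-D1 rose 1.51-fold, the light chain B2m 1.69-fold, and Tap1, the peptide transporter, 1.65-fold. Class I genes resemble each other closely, so reads may be shared among them. Irf1, Nlrc5, Gbp2, Ifitm2, Ifitm3 and H2-Q4 rose too. Microglial markers, had 2 of 12 higher, with sums of 37.1 to 41.1 CPM with K+ ICN and 31.0 to 36.9 CPM with PA, and Aif1 overlapped. The rises were 0 without K+ ICN replicate 1 and 1 without any other library apart from PA replicate 1. Their part in the result was not tested.

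In the B2m promoter the letters GAAA occur as a pair set 2 bases apart, the core of an interferon-stimulated element, beginning 139 bases before the start. It is printed because B2m serves every class I molecule; capitals mark the pair and the bases between. The window is chr2:122147502-122147601, plus strand, GRCm38.p6, RefSeq.
B2m: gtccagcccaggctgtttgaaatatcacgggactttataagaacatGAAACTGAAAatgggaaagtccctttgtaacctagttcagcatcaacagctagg
On either strand the pattern was in 1131 of 32851 promoters (3.44%).

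Genes of amino acid supply and the ATF4 response rose in 27 of 45 cases (60.0%) and fell in 0 (median log2 0.19). ATF4 is the factor that cells translate when amino acids run short or the translation factor eIF2 is phosphorylated, and it induces transporters, synthetases and enzymes of serine and asparagine. With K+ ICN, Atf5 stood at 134, 149 and 129 CPM, and with PA at 94.2, 89.5 and 84.6 CPM. Atf5, an ATF4 target and relative, rose 1.54-fold (edgeR adjusted p = 3.33e-13), and Atf4 itself rose 1.22-fold (edgeR adjusted p = 1.42e-08).

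Of 11 aminoacyl-tRNA synthetases 9 rose and 0 fell. The seryl-tRNA synthetase Sars had 217, 229 and 215 CPM with K+ ICN against 188, 187 and 198 CPM with PA, 1.15-fold (edgeR adjusted p = 2.84e-05). Of 9 amino acid transporters 5 rose, among them the cationic transporter Slc7a3 at 1.77-fold. Of 5 serine and glycine enzymes 4 rose, among them Phgdh (1.24-fold) and the mitochondrial Shmt2 (1.33-fold). Among other stress genes, Trib3 did not pass (log2 0.60, edgeR adjusted p = 0.133). Ddit3 overlapped between groups (1.31-fold, edgeR adjusted p = 0.0116), a call lost without K+ ICN replicate 2 or 3 or PA replicate 1. Ppp1r15a was called higher (log2 0.45).

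K+ ICN libraries had 15.6, 21.7 and 17.4 CPM of Chac1, and PA libraries 11.7, 10.8 and 12.3 CPM. Chac1, which breaks down glutathione, rose 1.57-fold with no overlap (edgeR adjusted p = 2.92e-05). Its promoter holds the ATF4 element, TGATGCAA, in reverse, beginning 193 bases before the start. The sequence is given because Chac1 rose and its promoter carries this element. Capitals mark it. The window is chr2:119351003-119351102, plus strand, GRCm38.p6, RefSeq.
Chac1: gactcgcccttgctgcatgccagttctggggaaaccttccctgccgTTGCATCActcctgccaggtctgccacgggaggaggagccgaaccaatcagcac
On either strand TGATGCAA was in promoters of 10 of 37 genes of the list (27.0%) and of 0.716% of tested genes. Counted as single promoters, 294 of 32851 (0.895%) held it. The list was written to hold ATF4 targets, so its high share says nothing about K+ ICN. Slc7a11, whose promoter holds the element at 2 sites, was not called (log2 0.14).

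Of 39 chaperone and protein folding stress genes, 3 rose (7.69%) and 5 fell (12.8%), against 8.15% and 7.68% of all genes. Hspa5, the main chaperone of the endoplasmic reticulum, had 310.0, 306 and 307 CPM with K+ ICN and 336, 333 and 345 CPM with PA, a fall to 0.909 (edgeR adjusted p = 0.00138). With upper-quartile scaling, or without any 1 of the 3 K+ ICN libraries or of PA replicates 1 and 3, the falls numbered 2. The rises were 1 without K+ ICN replicate 3 or PA replicate 2. Cytosolic ribosomal proteins rose in 20 of 79 cases and fell in 0, with a median log2 of 0.06. Rpl12, with the smallest p of the list, had 244, 237 and 238 CPM with K+ ICN against 198, 192 and 197 CPM with PA (1.22-fold, edgeR adjusted p = 3.03e-09); ribosomal protein genes have many processed copies that can share their reads.

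Txnip had the largest fall among named genes of at least 5 CPM. It encodes a brake on glucose uptake that the glucose sensor MondoA switches on, and MondoA also drives Arrdc4, its relative. Levels of Txnip were 5.03, 4.89 and 3.78 CPM with K+ ICN and 10.6, 15.1 and 10.4 CPM with PA. PA replicate 2 was the highest, and every PA library lay far above every K+ ICN library. Txnip fell to 0.381 of PA, a log2 change of -1.39 with an SE of 0.17 (edgeR adjusted p = 3.86e-08). Arrdc4 reached 17.99, 15.6 and 18.1 CPM in the K+ ICN libraries and 31.9, 30.2 and 30.7 CPM in the PA libraries. Arrdc4 fell to 0.557 of PA, again with no overlap (edgeR adjusted p = 4.13e-10).

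The Txnip promoter holds the carbohydrate response element, CACGNG as a pair with 5 bases between, beginning 85 bases before the start. It is shown because just 16 of 32851 promoters (0.0487%) have this arrangement on either strand; capitals mark the element. The window is chr3:96557826-96557925, plus strand, GRCm38.p6, RefSeq.
Txnip: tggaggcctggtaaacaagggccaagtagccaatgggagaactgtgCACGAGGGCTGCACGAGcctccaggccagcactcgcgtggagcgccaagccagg
Of 44 glucose and hypoxia genes 9 rose and 5 fell. The glucose transporters Slc2a1, Slc2a3 and Slc2a4 rose. Slc2a3, the neuronal one, had 157, 148 and 157 CPM with K+ ICN and 121, 120.2 and 124 CPM with PA (1.26-fold, edgeR adjusted p = 8.61e-09).

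Of 17 glycolysis enzymes 4 rose (Aldoa, Eno2, Gpi1 and Tpi1) and Hk1 fell, with its call lost without any 1 library other than K+ ICN replicate 1. Vegfa, a hypoxia target, rose 1.46-fold and Ndrg1, another, fell to 0.712 of PA. Mitochondrially encoded genes took 4.93% to 5.18% of counts with K+ ICN and 4.15% to 4.33% with PA. Messenger RNAs of the mitochondrial genome rose in 9 of 13 cases (median log2 0.16). In K+ ICN libraries mt-Co1 came to 12440.3, 12524 and 13176 CPM, against 9785, 10139 and 10306 CPM in PA libraries. mt-Co1, a subunit of cytochrome oxidase, was 1.26-fold higher (edgeR adjusted p = 2.78e-15). Of 71 nuclear-encoded respiratory chain genes 0 rose and 4 fell (median log2 -0.06). That is 5.63% lower, against 7.68% of all genes. The falls were 0 to 2 without K+ ICN replicate 2 or 3 or PA replicate 1 or 3. Cholesterol and lipid synthesis divided, with 5 of 36 higher (Hmgcs1, Pmvk, Cyp51, Insig1 and Apoe) and 6 lower (among them Acaca, Fasn, Mvd, Nsdhl and Scd2), 3 without PA replicate 3.

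**Figure D3:**
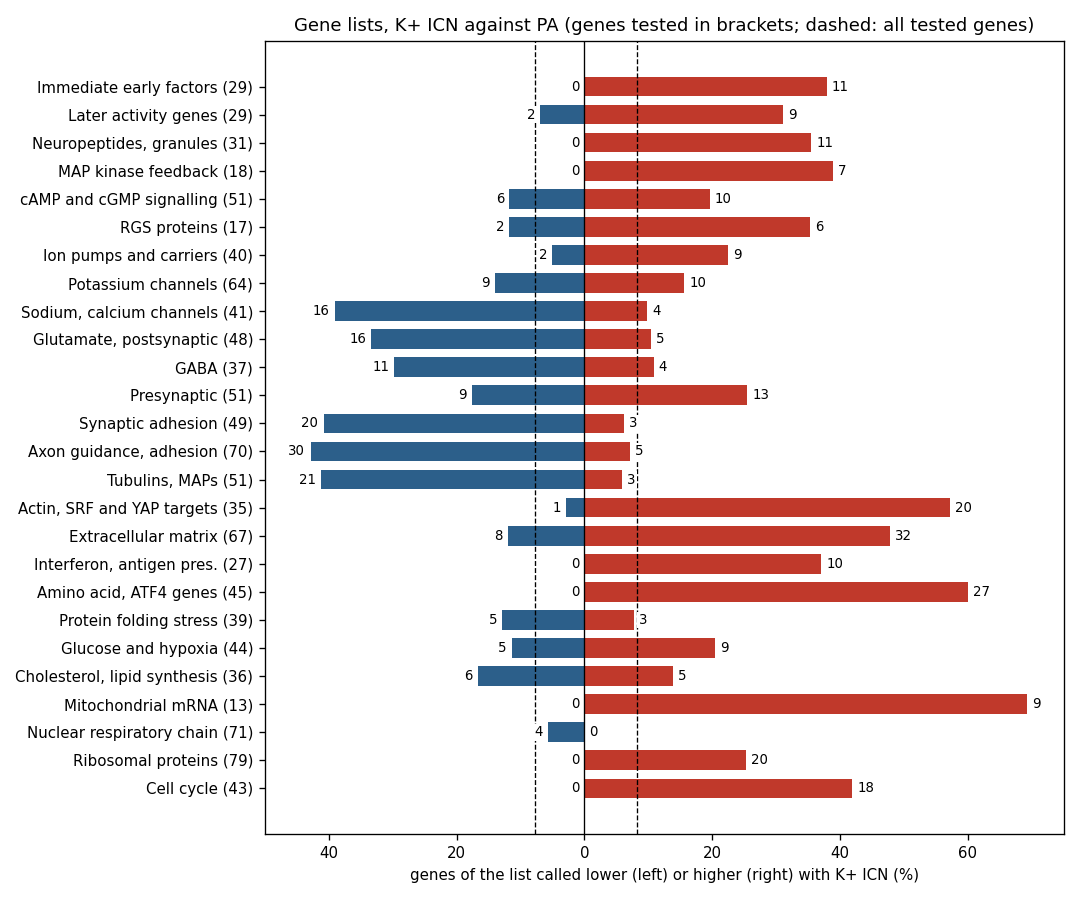
For 26 gene lists, bars give the percent of tested members called lower (left, blue) and higher (right, red) with K+ ICN against PA, with the counts at the bar ends and the number tested in brackets; dashed lines mark 7.68% and 8.15%, the shares over all tested genes. Actin, matrix, amino acid and activity lists extend to the right, and adhesion, axon, tubulin and sodium and calcium channel lists to the left.

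Transcripts of dividing cells and many astrocyte markers were more abundant with K+ ICN. Of 43 cell cycle genes 18 rose and 0 fell (median log2 0.24), and 10 rose without PA replicate 1. On the test for a change beyond 1.2-fold, 0 were called higher. Top2a, made in dividing cells, had 90.9, 91.4 and 92.1 CPM with K+ ICN and 71.9, 80.8 and 70.6 CPM with PA (1.23-fold, edgeR adjusted p = 7.37e-05). Of 11 astrocyte markers tested 9 rose, and the 13 listed summed to 853 to 878 CPM with K+ ICN and 726 to 759 CPM with PA. For Clu the libraries gave 76.7, 75.97 and 72.8 CPM with K+ ICN and 49.8, 47.7 and 47.6 CPM with PA. Clu was 1.56-fold higher (edgeR adjusted p = 3.69e-12) and Gfap, the astrocyte filament, 1.46-fold (edgeR adjusted p = 8.13e-05).

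Progenitor markers rose in 5 of 11 cases, 3 without PA replicate 3, with sums of 1268 to 1302 CPM with K+ ICN and 1094 to 1135 CPM with PA. Vim was measured at 403, 370.4 and 407 CPM with K+ ICN, against 262, 274 and 262 CPM with PA. Vim, the filament of progenitors, glia and fibroblasts, rose 1.48-fold (edgeR adjusted p = 5.49e-17). Adgrg1, an adhesion receptor that binds matrix and is used by progenitors and glia, had the smallest p of any rise, with 251, 258 and 258 CPM with K+ ICN against 173, 168 and 164 CPM with PA (1.52-fold, edgeR adjusted p = 3.82e-18). Of 9 oligodendrocyte lineage markers 2 rose and 1 fell (median log2 -0.15), with sums of 167 to 177 CPM with K+ ICN and 171 to 189 CPM with PA. Mbp rose 1.51-fold while Pdgfra, of oligodendrocyte precursors, fell to 0.705 of PA. The rises were 1 without any 1 library, and the falls 2 without K+ ICN replicate 2 or PA replicate 3. Excitatory markers summed to 1182 to 1222 CPM with K+ ICN and 1225 to 1247 CPM with PA, and inhibitory markers to 708 to 728 CPM with K+ ICN and 739 to 754 CPM with PA. Cajal-Retzius markers, of which 2 of 7 fell, summed to 421 to 439 CPM with K+ ICN and 489.7 to 505 CPM with PA. How far numbers of each cell type contribute to any list above was not tested.

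The share of genes that fell varied with level, which comes from the same counts, and with gene length, which the comparison did not use. By quintiles of mean level, the share that fell climbed with level, at 0.494%, 2.21%, 4.45%, 9.32% and 21.9%, and the share that rose was 3.23%, 9.22%, 8.92%, 8.004% and 11.4%. The power to call a small change also grows with counts. By quintiles of gene length, with medians of 3961, 11728, 23628, 47696 and 136483 bases, 3.00%, 4.64%, 6.94%, 9.11% and 15.1% fell, the first being 1.90% without PA replicate 1, while 8.64%, 6.94%, 7.78%, 7.74% and 9.54% rose.

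Because long genes in these data were also often of high level, the highest quintile of level was also split by length, a choice made after the first result was seen. Among those genes, the share that fell was 8.89% of the shortest, then 15.5%, 21.2% and 22.7%, and 30.2% of the longest. The share that rose was 21.9% of the shortest, then 11.6%, 12.7% and 7.31%, and 8.93% of the longest. The part of the adhesion, axon guidance and channel lists in this pattern was not tested. By quintiles of transcript GC content, 6.14% of the lowest and 11.01% of the highest rose, and 9.96% and 6.70% fell. Of 1098 long non-coding RNAs 4.46% rose and 1.28% fell, against 8.53% and 8.39% of 13613 protein-coding genes.

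**Figure D4:**
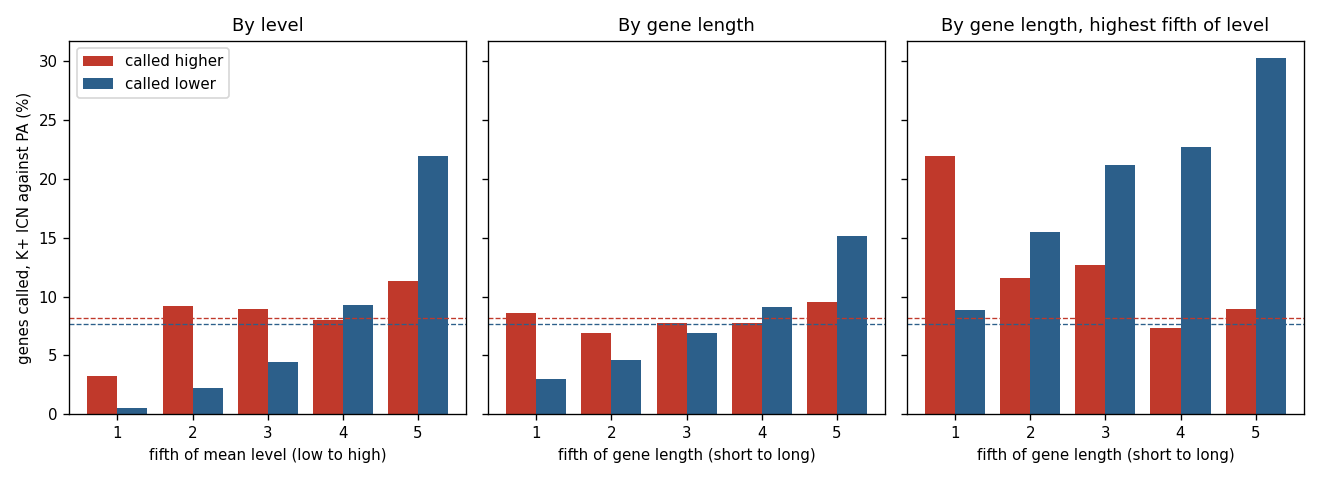
Bars give the percent of genes called higher (red) and lower (blue) with K+ ICN against PA by quintile of mean level, by quintile of gene length, and by gene length within the highest quintile of level; dashed lines mark 8.15% and 7.68%. In the last panel the share that fell goes from 8.89% of the shortest genes to 30.2% of the longest.

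Set directly against Na+ ICN, given at the same labelled dose and time, K+ ICN differed in 999 genes (6.58% of 15183, edgeR adjusted p under 0.05), with 505 higher (3.33%) and 494 lower (3.25%). Na+ ICN differed from PA in 10.9% of genes. The K+ ICN and PA libraries each enter 2 of these comparisons, so values are set side by side and no overlap is drawn. The named genes were picked on K+ ICN against PA, which uses the same K+ ICN libraries as the comparison of ions. Of 29 immediate early genes 10 were higher with K+ ICN than with Na+ ICN and 0 lower, of 29 later activity genes 7 and 1, and of 31 neuropeptide and granule genes 13 and 0. Others that rose over PA did not pass between the ions, among them Jund at a log2 difference of -0.035 and Nrn1 at 0.15 (edgeR adjusted p = 0.79 and 0.338). Scg2 had 349, 362 and 369 CPM with K+ ICN and 233, 209 and 226 CPM with Na+ ICN, without overlap, a log2 difference of 0.69 (edgeR adjusted p = 5.29e-20). For Bdnf the difference was 0.74, with a 95% interval of 0.61 to 0.87, and for Fos 0.71, with an interval of 0.58 to 0.85.

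Rxfp1 and Rgs13 stood with them, at log2 differences between the ions of 1.26 and 1.40, against 1.22 and 1.43 for K+ ICN over PA and -0.042 and 0.028 for Na+ ICN over PA. Rgs4 was 0.78 higher with K+ ICN than with Na+ ICN, and Na+ ICN was below PA (-0.34). Tubulins and microtubule proteins were lower with K+ ICN than with Na+ ICN in 20 of 51 cases and higher in 2, with -0.26 for Tubb3. Itpr1 differed by -0.43 and Tafa1, a secreted neuronal protein, by -0.79 (edgeR adjusted p = 1.21e-10 and 0.00111).

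For Txnip, Atf5, Slc29a1 and Gipr the interval of the difference between ions was near or across 0. For Txnip the log2 change over PA was -1.39 with K+ ICN and -1.42 with Na+ ICN, and the difference between ions was 0.027 (95% interval -0.34 to 0.40). For Atf5 the difference was 0.042 (-0.049 to 0.13), and for the nucleoside transporter Slc29a1 0.17 (-0.071 to 0.41). For Gipr it was 0.30 (0.021 to 0.58), and it did not pass adjustment (edgeR adjusted p = 0.257). Of 27 interferon and antigen genes 1 was higher with K+ ICN than with Na+ ICN, and of 43 cell cycle genes 0 differed. Actin, SRF and YAP targets differed in 7 higher and 3 lower of 35, with Acta2 at 0.32 (edgeR adjusted p = 0.00118). The mitochondrial messenger RNAs were lower with K+ ICN than with Na+ ICN in 8 of 13 cases and ribosomal proteins in 14 of 79, with 0 and 1 higher. GABA genes were higher in 10 of 37 and lower in 1, with Gad1 at 0.25 (edgeR adjusted p = 8.14e-07).

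**Figure D5:**
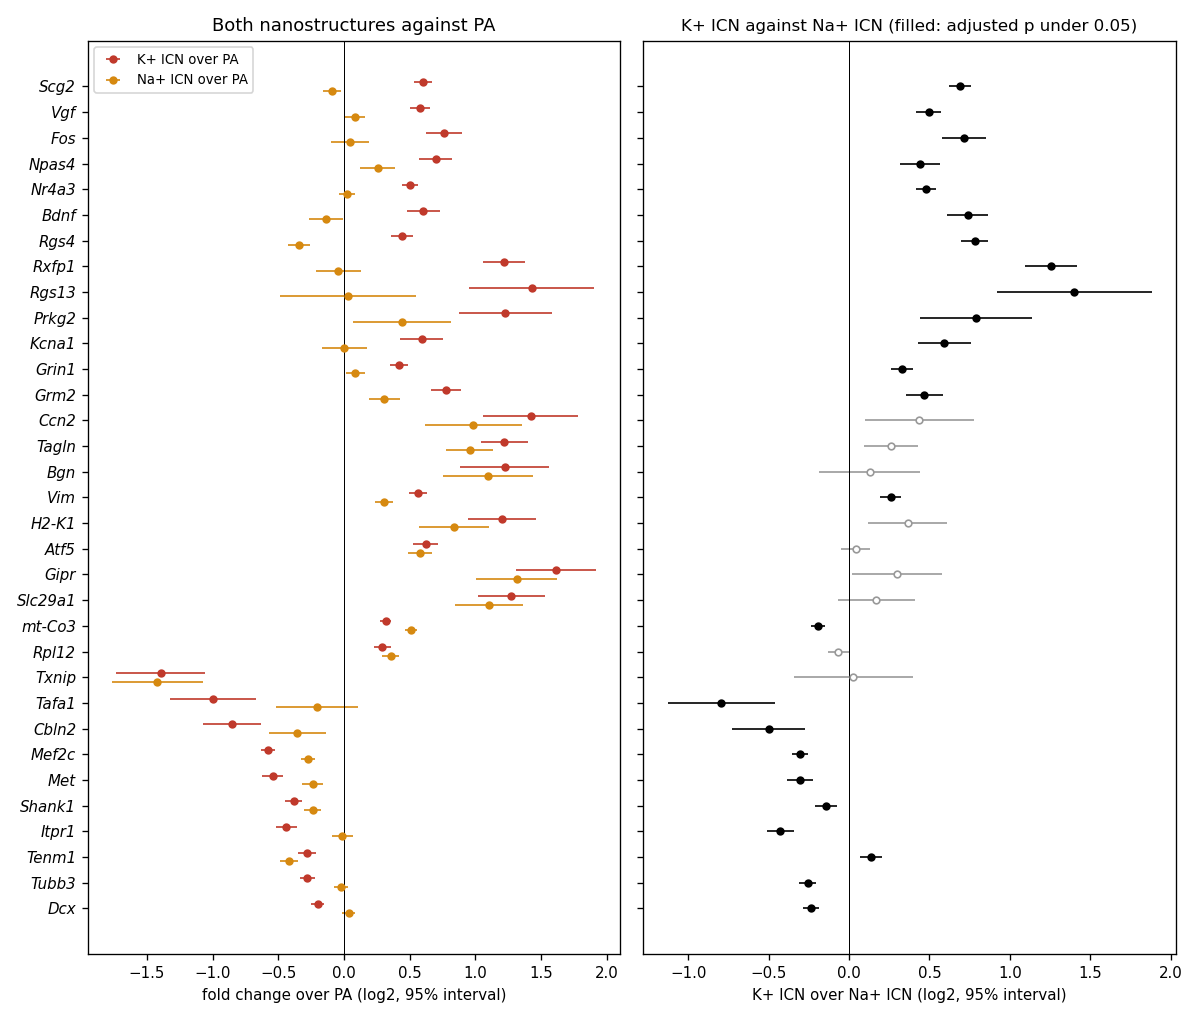
Left, log2 fold changes over PA with 95% intervals for K+ ICN (red, upper) and Na+ ICN (orange, lower) in 33 named genes; right, the difference of K+ ICN over Na+ ICN in the same genes, filled where the adjusted p is under 0.05. Scg2, Bdnf, Fos and Rxfp1 differ between the ions, while Txnip, Atf5, Gipr and Slc29a1 change over PA with both and their difference between ions does not pass.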

How the data were processed

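RNA was sequenced from 9 cultures of mouse cortical neurons, 3 per treatment, grouped by their labels. The authors deposited counts per gene symbol, whole numbers without scaling, in 1 table. GRCm38 (mm10), STAR, RSEM and Trim Galore are named per the submitters' processing notes, and their versions, the strand setting and the annotation release were not given in the sources used here. No value columns were left unused (0).

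Genes with at least 10 counts in enough libraries by edgeR's filter (15183 of 40773, holding 99.9% of counts) were scaled by TMM and fitted with edgeR 4.0.16 (quasi-likelihood, all 9 libraries, no covariate) in R 4.3.3, and p-values were adjusted over all 15183 genes by the Benjamini-Hochberg method. A gene is called at an adjusted p under 0.05. limma 3.58.1 (voom) and DESeq2 1.42.0 were alternatives, with other scalings, filters, a replicate block, a 1.2-fold threshold and single libraries left out. The fit was tested on simulated data.

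The treatment comparison and the gene lists were chosen with earlier results of these data known. Genes were named by rule: the 12 largest rises and falls and the 8 smallest p of each direction among called genes of at least 5 CPM whose groups did not overlap, up to 5 called members per list with the smallest p, and 22 fixed genes. Other genes named were chosen after their values were seen, and some named by the rule are not reported here. A likeness between libraries was checked by chi-square over genes, and no pair agreed within sampling noise (chi-square per degree of freedom 3.22 to 4.07).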

Additional observations from a re-analysis of the deposited data

How the results depend on the processing

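The count of 2403 genes between K+ ICN and PA was 2216 with DESeq2, 2411 with limma voom, 2407 with DESeq2 size factors and 2342 with upper-quartile scaling. The test for a change beyond 1.2-fold left 251 genes, 210 higher and 41 lower. The calls of many lists then went to 0, among them the rises of ribosomal protein, cell cycle and MAP kinase feedback genes. Leaving out 1 library gave 1778 to 1954 genes, with 931 to 1017 higher and 833 to 942 lower. Between K+ ICN and Na+ ICN the 999 genes became 714 to 885. No called gene among those named changed sign under any alternative run. With the replicate number as a block, the counts were 2612 for K+ ICN against PA (1326 higher and 1286 lower) and 1165 for K+ ICN against Na+ ICN. Same-numbered K+ ICN and PA libraries did not deviate together (correlations over genes of -0.0156, 0.00035 and -0.0099), and 0 of 3 K+ ICN libraries correlated best with the PA library of its own number, so the numbers were not taken as pairs.

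Precision is limited by 3 cultures per group. Fold changes are relative to all transcripts, so a change in total RNA per culture is not seen.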

Other observations

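Clock genes moved in both directions: of 22 tested 5 rose (Cry2, Nfil3, Npas2, Per1 and Per2) and 3 fell (Bhlhe40, Csnk1d and Rorb). The rises were 3 without K+ ICN replicate 3 or PA replicate 1, and the falls 1 without K+ ICN replicate 2. Per1, a repressor of the clock that cAMP and calcium induce, had 120.3, 114 and 119 CPM with K+ ICN and 102, 98.1 and 99.4 CPM with PA (1.18-fold, edgeR adjusted p = 3.6e-05). Of 22 neurotrophin and growth factor genes 5 rose (Bdnf, Cntfr, Fgfr1, Igf1 and Sorcs2), 3 without K+ ICN or PA replicate 3, and Ntrk2, the receptor of Bdnf, fell, with its call lost without K+ ICN replicate 1 or PA replicate 2 or 3. Of 38 apoptosis and p53 genes 4 rose (10.5%) and 3 fell (7.89%), near the 8.15% and 7.68% of all genes. Without PA replicate 3 the counts were 2 and 1. Of 31 genes of immature neurons 5 rose and 8 fell, among them Sox11, at 0.915 of PA (edgeR adjusted p = 0.000808).

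Of 5 choroid and ependymal markers 1 rose, with sums of 53.1 to 67.4 CPM with K+ ICN and 33.9 to 58.0 CPM with PA, and 0 rose without K+ ICN replicate 1. The erythroid marker Hba-a1 had 1.99, 2.02 and 2.37 CPM with K+ ICN and 1.02, 0.861 and 0.219 CPM with PA (3.09-fold, edgeR adjusted p = 0.00291), while Hbb-bs, Hbb-y and Alas2 were at 0 in all 6 libraries.

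Entpd4 and Entpd4b, neighbouring copies on chromosome 14 (69337151 to 69366742 and 69555401 to 69584940, GRCm38), divided their counts unevenly between libraries. Entpd4 had 13.5, 7.24 and 7.90 CPM with K+ ICN, 0, 3.59 and 7.88 CPM with Na+ ICN and 0, 0 and 0 CPM with PA (edgeR adjusted p = 0.0948 for K+ ICN against PA). Entpd4b had 35.5, 41.2 and 35.4 CPM with K+ ICN and 48.98, 48.5 and 43.9 CPM with PA, a fall to 0.793 of PA (edgeR adjusted p = 0.000486). Their sum was 48.9, 48.4 and 43.3 CPM with K+ ICN and 49.0, 48.5 and 43.9 CPM with PA, and the groups overlapped. All 3540 of the 3540 words of 50 bases in the longest transcript of Entpd4 also occur in that of Entpd4b, so the values of either copy alone are uncertain.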
